A study of Ciona robusta with 12 samples.

Results

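The change in transcript levels during normal cleavage between the 64-cell and the 112-cell stage was followed in the tunicate Ciona robusta, a sea squirt, using RNA of entire embryos. It was read from the 6 carrier-treated libraries among the 12 RNA sequencing libraries of the series. These were chosen by treatment label, with 3 DMSO libraries at 64 cells and 3 at 112 cells. All embryos were grown at 21 degrees Celsius, and the carrier DMSO (1:1000) was added at the 32-cell stage. The other 6 libraries, 3 per stage, came from embryos that received the MEK inhibitor U0126 at the same stage. The label gives its dose as 4 mM, a high concentration for U0126, with a unit that no source used here allows to be verified. Each library pooled 300 embryos, so the values are averages over all cell types and over embryos. In such bulk samples, fewer cells that express a gene and less of its RNA per cell cannot be told apart.

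Ascidian embryos cleave in a fixed pattern, and most of their cells become restricted to a single tissue during these stages. As in other animals, the egg supplies messenger RNAs, and transcription from the embryo's own genome starts during cleavage. Signals between neighbouring cells, FGF acting through MEK and ERK among them, then switch on genes for notochord, neural tissue and other fates. A level measured in the whole embryo thus mixes inherited transcripts, which can only decay, with transcripts made by the embryo.

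The deposited tables name 15284 gene models by KH2012 identifiers and do not pair these with gene names. A RefSeq gene table of the species matched 0 of the identifiers. The genes are therefore grouped by their starting level and the direction of their change, and 4 identifiers are given. Lists of muscle, neural, notochord, epidermal, germline, signalling and cell cycle genes could not be matched and were not used, so no cell type markers were checked.

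Between 10623872 and 15956670 reads fell on genes in the DMSO libraries. Stage was the main axis of variation among them: the first principal component (48.3% of the variance) placed the 64-cell libraries at -49.8 to -40.2 and the 112-cell libraries at 24.9, 25.5 and 80.3. The value of 80.3 belonged to replicate 3. In this library 219 genes lay 4-fold or more below every one of the other 5 DMSO libraries, while the other libraries had 0 to 36. None of those 219 genes was among the genes called below in either direction, but their spread between libraries made a call unlikely from the start. Replicate 3 also differed in the called genes. Of the 43 genes called lower, 28 lay below both other 112-cell libraries in it and 4 above both. Of all 11212 genes tested, 4920 lay below and 4460 above. Results are given with and without replicate 3 where they rest on it. Each stage was deposited as a table of its own, and the labels name no collection or sequencing batch, so a batch shared by all libraries of a stage cannot be told apart from the stage.

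More genes were detected at 112 cells. With every library thinned to 10623872 reads, the depth of the shallowest, the expected number of genes with at least 1 read was 13231, 12980 and 13004 in replicates 1 to 3 at 64 cells. It was 13612, 13458 and 13754 at 112 cells. The groups did not overlap, and the means differed by 536 genes (13072 ± 139 against 13608 ± 148, SD, n = 3 each; exact permutation test, two-sided, p = 0.1, the smallest that 3 against 3 libraries allow). This permutation test did not use the pairing by replicate number. With at least 10 reads asked for, 10415 to 10646 genes were detected at 64 cells and 10940 to 11261 at 112 cells.

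Which transcripts appeared and which were lost was then tested gene by gene. Rises outnumbered falls among the genes called and were far larger. Of 11212 genes tested, 456 were called (4.07%), 413 higher at 112 cells (3.68%) and 43 lower (0.384%). The test was limma on log2(scaled count + 1) with the replicate number as a block, with calls made under an adjusted p of 0.05 (Benjamini-Hochberg). A scaled count is a read count divided by a size factor for its library. It is not corrected for gene length, so levels are compared between stages and not between genes. The median log2 change was 2.68 for the higher genes, with a median SE of 0.26, and -1.15 for the lower genes, with a median SE of 0.15. All genes tested had a median of -0.02. Of the higher genes, 409 changed at least 2-fold (3.65% of genes tested), 295 at least 4-fold, 185 at least 8-fold and 18 at least 64-fold. Of the lower genes, 30 changed at least 2-fold (0.268%), 5 at least 4-fold and 0 at least 8-fold. The sign was the same in all 3 pairs for each of the 456 genes. The calls rest on these same pairs, so this was nearly given by the call and is a description only. At an unadjusted p under 0.05 the split was more even, with 1158 genes higher and 906 lower. The counts depended on the libraries: 325 genes were called higher and 167 lower without replicate 1 of both stages, 184 and 11 without replicate 2, and 1035 and 1537 without replicate 3. DESeq2 called 661 higher and 198 lower.

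**Figure D1:**
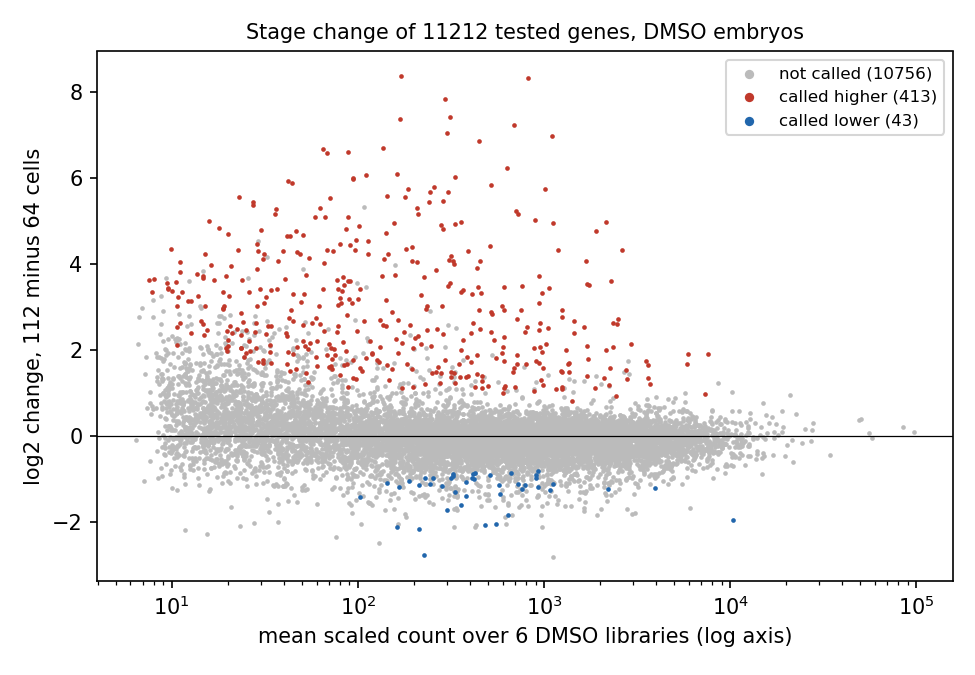
Mean scaled count over the 6 DMSO libraries (log axis) against the log2 change from 64 to 112 cells, 1 point per tested gene. The 413 genes called higher (red) have a median log2 change of 2.68 and the 43 called lower (blue) one of -1.15. The top point, KH.C2.957 at 8.38, had 0 reads at 64 cells, so its height depends on the pseudocount.

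The strongest form of activation was a gene near zero at 64 cells. Of the 413 higher genes, 103 (0.919% of all genes tested) had a scaled count under 10 in all 3 libraries at 64 cells. Of these, 44 had at most 3 reads in any library at 64 cells, and 4 had no read in all 3. Their means at 112 cells ran from 14.7 to 626 with a median of 46.1, so most were still modest. The mean reached 50 in 49 genes, 100 in 23 and 500 in 3. Genes of this kind could enter the test only by reaching 10 in all 3 libraries at 112 cells, so a difference was built into their selection. In all, 218 gene models met this condition, and 115 of them were not called.

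KH.C2.957 had 0 reads in each of the 3 DMSO libraries at 64 cells. At 112 cells it had 313, 276 and 382 reads, or scaled counts of 276, 294 and 455. It was absent at this depth in every library of one stage and well covered in every library of the other. With a floor of 3 reads per library, it was at least 122-fold higher at 112 cells (341.7 ± 98.5, SD, n = 3; limma adjusted p = 0.00335). Its fitted log2 change has no fixed size, with 8.38 at a pseudocount of 1, 5.41 at a pseudocount of 8 and 11.4 in edgeR.

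KH.S164.28 had scaled counts of 12.02, 3.88 and 0.914 in replicates 1 to 3 at 64 cells, the last from a single read. It stood at 1366, 1428 and 2111 at 112 cells. The groups lay far apart, but the 64-cell libraries differed more than 10-fold among themselves, so the size of the change is less certain than its direction. The log2 change was 8.34 (SE 0.66, limma adjusted p = 0.00784), and 6.71, 8.19 and 10.1 in the 3 pairs.

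**Figure D2:**
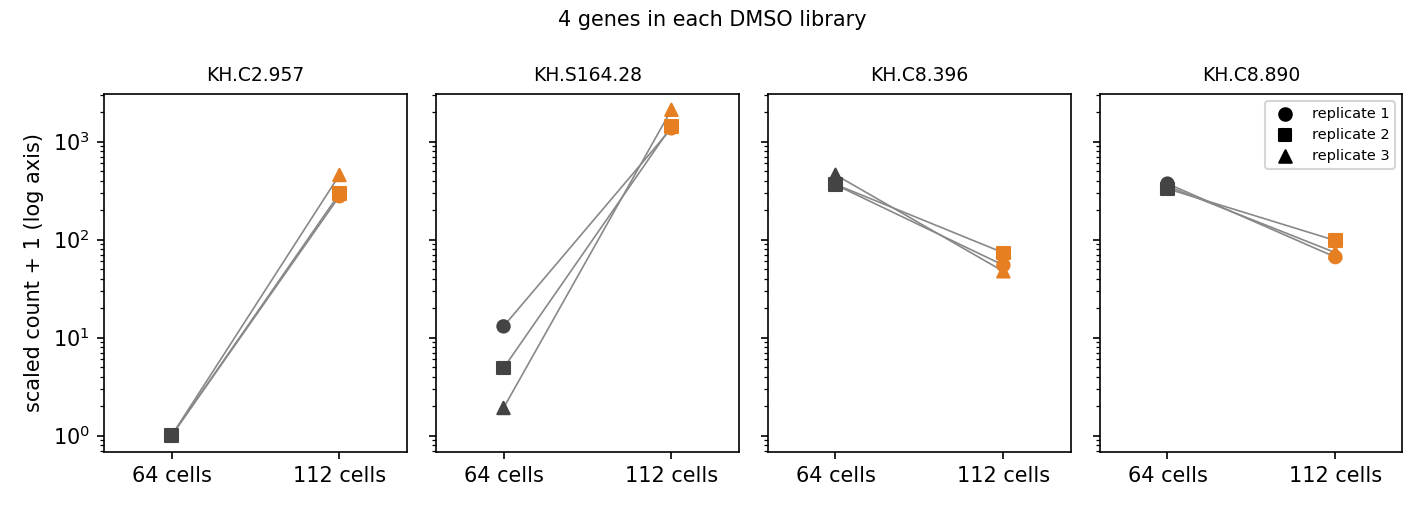
Scaled count + 1 (log axis) of 4 genes at 64 and 112 cells, 1 point per DMSO library, with lines joining libraries of the same replicate number. KH.C2.957 and KH.S164.28 rise and KH.C8.396 and KH.C8.890 fall in all 3 pairs.

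Most other risers were already present at 64 cells, with a mean scaled count of at least 10 in 270 genes. Mean scaled counts at 64 cells were under 10 in 143 of the 413 genes, 10 to 50 in 107, 50 to 200 in 82, 200 to 1000 in 64 and at least 1000 in 17. The higher the starting level, the smaller was the median log2 change: 2.68, 2.30, 1.74 and 1.35 in the last 4 of these classes. Starting level and change share the 64-cell libraries, so part of this order follows from the way they are computed. The 17 genes that started from at least 1000 rose by a log2 value of 0.82 to 2.13. Among the 81 risers that started from at least 200, 25 rose at least 4-fold.

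Split by the mean over all 6 libraries, which does not favour either direction, calls also differed by level. Of 1815 genes with a mean under 50, 6.34% were called higher and 0 lower. Between 50 and 200, 6.81% of 1805 genes were called higher and 0.277% lower. Between 200 and 1000, the shares were 3.18% and 0.861% of 3834 genes. From 1000 up, they were 1.41% and 0.133% of 3758 genes. The median SE was 0.34 in the lowest class and 0.17 to 0.23 in the others. The lowest class also had a median log2 change of 0.43, against -0.08 to 0.06 in the others, and all 112-cell libraries lay above all 64-cell libraries in 25.5% of its genes and below them in 2.26%.

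Falls were partial. The 43 lower genes had means of 148 to 16393 scaled counts at 64 cells, with a median of 553, and their median at 112 cells was 249. Relative to the other genes of each library, a median of 45.5% of the 64-cell level remained, and the range was 14.6% to 56.6%. The smallest fall called had a log2 change of -0.82. Smaller falls did not pass the call, so the median and the upper end follow in part from it. The scaling places the typical gene near no change, so a loss shared by most transcripts would not show. Under 25% remained in 5 genes. The lowest scaled count of any of the 43 in any library at 112 cells was 40.6. None of these genes had thus gone from the embryo by 112 cells.

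KH.C8.396 had scaled counts of 362, 365 and 458 in replicates 1 to 3 at 64 cells and 53.8, 72.4 and 46.5 at 112 cells. Every library at 112 cells lay far under every library at 64 cells. The log2 change was -2.77 (SE 0.24, limma adjusted p = 0.00963), and 14.6% of the level remained. KH.C8.890 had 372, 329 and 350 at 64 cells and 65.3, 96.9 and 72.7 at 112 cells. The groups were again far apart, with 22.4% remaining and a log2 change of -2.17 (SE 0.21, limma adjusted p = 0.0126).

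Complete loss was not seen in a called gene. limma called 0 genes that were under 10 scaled counts in all 3 libraries at 112 cells, where 2 such genes had an unadjusted p under 0.05, and edgeR and DESeq2 also called 0. A fit over all 12 libraries called 3. Without a test, 4 gene models were at 10 or more in all libraries at 64 cells and under 10 in all at 112 cells, with means of at most 19.3 at 64 cells. The reverse pattern was met by the 218 gene models given above, with means up to 626 at 112 cells.

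Falls without overlap between the stages were met in more genes than the 43 calls. In 1454 genes (13% of those tested) all 3 libraries at 112 cells lay below all 3 at 64 cells, against 1260 genes (11.2%) in which all lay above. With so few libraries, part of the genes separate in this way by chance, so not all of them need have changed. The falling genes had a median log2 change of -0.55, and 185 (12.7%) reached 2-fold. The rising genes had a median of 1.30, and 748 (59.4%) reached 2-fold. The falling genes were the more highly covered, with a median scaled count of 869 at 64 cells against 43.5. Non-overlapping falls made up 15.03% to 17.6% of the genes with a mean from 200 up.

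How many falls were called depended on replicate 3 and also on the fit. With replicate 3 kept, all 12 libraries with the replicate block gave 882 genes called lower and DESeq2 gave 198. The cause was not tested. At least 2-fold rises were found in 7.51%, 8.55% and 13.2% of the genes tested in pairs 1, 2 and 3, and at least 2-fold falls in 1.20%, 1.12% and 13.7%. Pairs 1 and 2 thus held several times more rises than falls of this size, and pair 3 held about equal numbers. Only 30 genes fell at least 2-fold in every pair, while 566 rose at least 2-fold in every pair. At least 4-fold changes in every pair were seen in 256 rising and 2 falling genes.

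**Figure D3:**
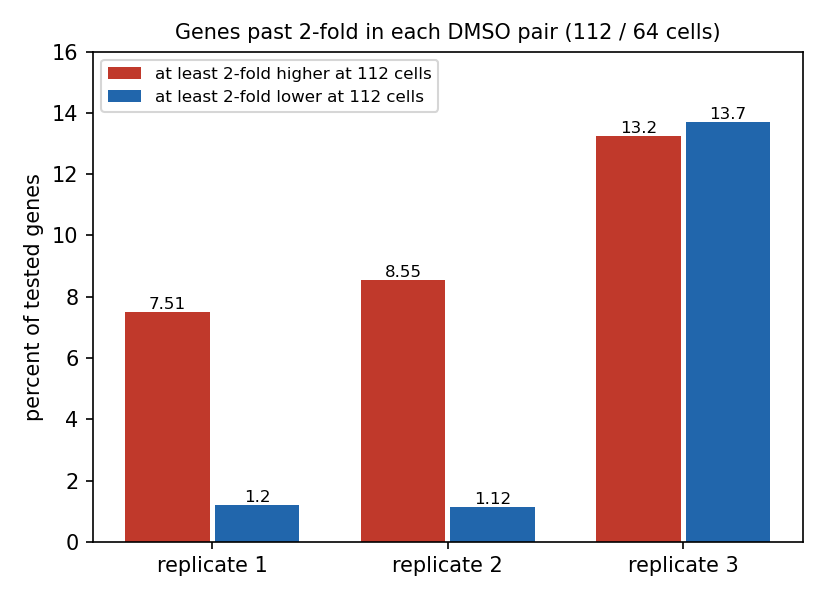
Percent of tested genes at least 2-fold higher (red) or lower (blue) at 112 than at 64 cells in each pair of DMSO libraries with the same replicate number. Falls reach 1.20% and 1.12% of genes in pairs 1 and 2 and 13.7% in pair 3.

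Without replicate 3 of both stages, 2572 genes were called, 1035 higher and 1537 lower, so falls then outnumbered rises. These falls were small, with a median log2 change of -0.43, and 64 of the 1537 reached 2-fold. Pair 3, which took no part in choosing them, gave a fall in 1223 of the 1537 genes (79.6%, against 51.2% of all genes tested), with a median of -0.60. It gave a rise in 801 of the 1035 higher genes (77.4%, against 48.7%), with a median of 0.91. All 195 genes called without replicate 2 had the same direction in pair 2, where 46.5% of all genes tested rose and 53.4% fell. Of those called without replicate 1, 322 of the higher (99.1%, against 46.4%) and 120 of the lower genes (71.9%, against 53.5%) had the same direction in pair 1. The size of these falls was not kept. All 167 lower genes were at least 2-fold in the fit, with a median of -1.86. In pair 1 the median was -0.37, and 24 (14.4%, against 1.05%) reached 2-fold. These fits have 1 residual degree of freedom, and genes near zero at 64 cells could not pass the filter in them. Without replicate 3 all 299 higher genes that could be tested and all 43 lower genes were called again. Without replicate 1 it was 246 of 284 higher and 18 of 43 lower genes, and without replicate 2 it was 176 of 303 and 9 of 43. The remaining pairs had also taken part in choosing these genes.

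The number of near-zero genes activated was read again with a filter of 10 in at least 2 libraries, a setting chosen after these results were seen. It was 201, 118 and 234 without replicate 1, 2 and 3. The fit that uses the U0126 libraries for the spread as well, with 6 residual degrees of freedom, called 1153 genes higher and 882 lower in DMSO embryos. Their median log2 changes were 1.61 and -0.61, and 856 and 129 reached 2-fold.

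In reads, the rising set was a small part of the embryo's RNA. The 413 genes took 0.551%, 0.532% and 0.493% of the reads in replicates 1 to 3 at 64 cells and 2.23%, 2.33% and 2.47% at 112 cells. The 43 falling genes went from 0.370 ± 0.0115% to 0.144 ± 0.0133% (SD, n = 3 each). These sets were chosen by the same values, so the DMSO shares are a description. The 103 near-zero genes held 0.0674 ± 0.0182% of the reads at 112 cells. Most of the gain thus came from risers with a scaled count of 10 or more in at least 1 library at 64 cells. Of these risers, 40 had a mean under 10 at that stage. No few genes dominated the gain: the 10 risers with the largest gain held 20.8% to 22.6% of the risers' reads at 112 cells. Genes tested and not called held 99.0% of the reads at 64 cells and 97.3% to 97.5% at 112 cells.

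**Figure D4:**
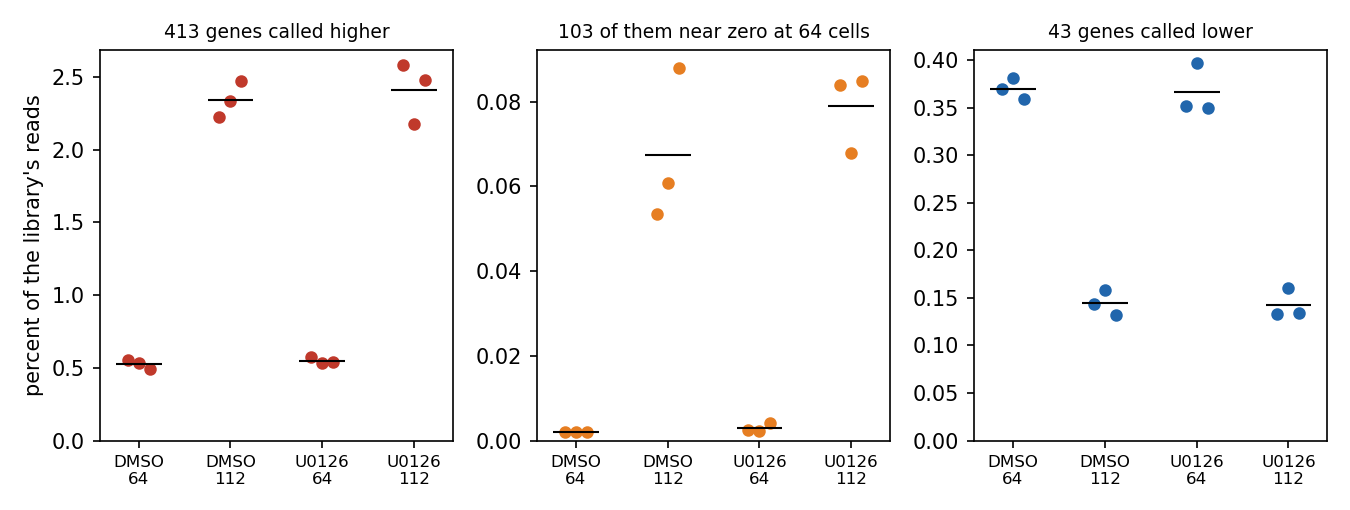
Percent of each library's reads held by the 413 genes called higher, by the 103 of them near zero at 64 cells and by the 43 genes called lower, 1 point per library with the group mean as a line. In DMSO embryos the 413 genes go from a mean of 0.526% to 2.34%, and the U0126 libraries, which did not enter the choice, from 0.550% to 2.41%.

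Embryos that received U0126 passed through the same interval in separate libraries, which gave a second reading of the same genes. These libraries were deposited in the same stage tables and carry the same replicate numbers. A batch shared by a stage would thus appear in DMSO and U0126 embryos alike. The 413 genes took 0.550 ± 0.0248% of reads at 64 cells and 2.41 ± 0.212% at 112 cells in U0126 embryos (SD, n = 3 each). Of the 413 genes, 387 had a positive stage change in U0126 embryos (93.7%, against 48.1% of all genes tested), and 325 rose at least 2-fold (78.7%, against 6.85%). Of the 103 near-zero genes, 96 had a positive change and 83 rose at least 2-fold. All 43 lower genes had a negative stage change (against 51.9%), and 25 fell at least 2-fold (58.1%, against 1.04%). The median log2 change was 2.15 in U0126 and 2.68 in DMSO embryos for the higher genes, and -1.07 and -1.13 for the lower genes. Choosing the genes by their DMSO values favours a larger change in DMSO embryos. On the scale of all 12 libraries, KH.S164.28 reached 1880, 1327 and 1612 scaled counts at 112 cells in U0126 replicates 1 to 3. KH.C8.396 fell to 84.3, 84.6 and 94.7 and KH.C8.890 to 112, 98.2 and 99.2. KH.C2.957 reached 129, 103 and 176, under each DMSO library, which stood at 265, 282 and 431 on this scale. Its stage change was larger in DMSO embryos by a log2 value of 2.26 (SE 0.50), which did not pass the test (limma adjusted p = 0.197). At 64 cells KH.C2.957 stood at 0, 1.04 and 2.94 in U0126 replicates 1 to 3 and at 0 in each DMSO library. The size of the difference thus also depends on the pseudocount.

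The difference between the stage changes of both arms was tested over all genes, and 31 of 11650 were called (0.266%). Of the 456 genes called in DMSO embryos, 28 were among them, all risers, and 27 of these rose more in DMSO embryos. This count was 0 without replicate 1 or 2 of all 4 groups, 95 without replicate 3 and 18 without the block. The 28 genes had a median log2 change of 2.55 in DMSO embryos and 0.01 in those with U0126. At 112 cells their median level was 386 scaled counts with DMSO and 29.7 with U0126. The DMSO libraries chose these genes and also enter the difference, so a bias towards a larger change in DMSO embryos is built in. For the other 428 genes no difference was called, which does not show that their changes were equal.

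**Figure D5:**
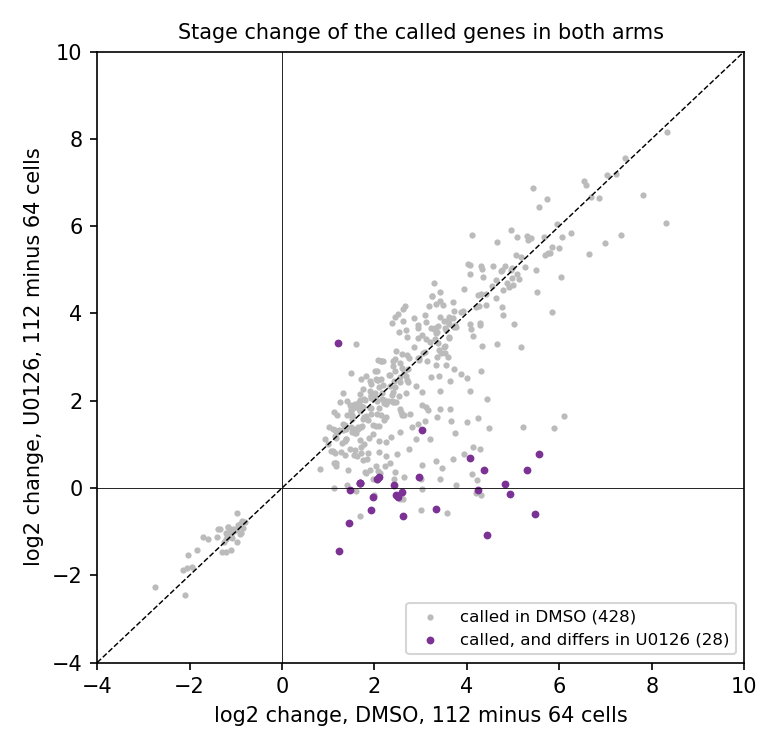
Log2 change from 64 to 112 cells in DMSO embryos against that in U0126 embryos for the 456 genes called in DMSO embryos, from the fit over all 12 libraries, with the line of equal change dashed. The 28 genes whose change differed (purple) lie near 0 on the U0126 axis for the most part, and the 43 falling genes lie below 0 on both axes.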

How the data were processed

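There is 1 deposited table per stage. Per the file headers, its values are a signal: the authors' read counts of each gene, scaled to library size. TopHat2 2.9.8b and DESeq 1.8.1 are named, per the submitters' processing notes. Nothing used here states the read counter, strand setting or genome build, so overlapping, antisense and near-identical genes are uncertain. Regularized log values in the same tables were not used.

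Each column was divided by its smallest nonzero value. All values came out whole within 0.01, which gave whole reads. Both tables were joined on the gene identifier and rescaled together with median-of-ratios factors over the 6 DMSO libraries (over all 12 for comparisons with U0126). Genes entered with a scaled count of at least 10 in at least 3 libraries. limma 3.58.1 in R 4.3.3 was fitted with a variance trend on log2(scaled count + 1), which understates the change of low genes. The replicate number was a block. The comparison pairs libraries by this number. Deviations from the stage means were shared by libraries of 1 number. Pearson's r across genes was 0.564, 0.704 and 0.323, against -0.482 to -0.050 for different numbers. The deviations are centred within each stage, so part of this contrast is built in. What a number stands for is not labelled. Replicates are biological per the design text, with no clutch or day named. No replicates were duplicates (mean chi-square per gene 20.3 to 128). edgeR 4.0.16 and DESeq2 1.42.0 on the recovered reads were alternatives, as were other scalings, filters, pseudocounts and left-out libraries. The fit was tested on simulated data.

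The named genes are the 2 called higher and the 2 called lower with the largest change, the same sign in all pairs and a mean of at least 50 scaled counts. The comparison and its lists were chosen with earlier results of these data known. A count of 0 allows up to 3 reads, and this floor covers counting error only.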

Additional observations from a re-analysis of the deposited data

Results flagged for a closer look

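The stage change differed between DMSO and U0126 embryos, by the test of the difference itself, in 28 of the 456 genes called in DMSO embryos. The count was 0 without replicate 1 or 2 of all groups and 95 without replicate 3, and 18 without the replicate block. No library group had the 4 samples needed for a check of single outlying samples.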

How the results depend on the processing

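The 4 named genes kept their direction and their call in every alternative that tested them, 18 to 24 each. They were picked for the largest changes among called genes, and the alternatives reuse the libraries that picked them. This outcome was thus likely from the start. KH.C2.957 could not be tested where a 112-cell library was left out under the filter of 3 libraries, nor KH.S164.28 in 1 of these fits. edgeR with the replicate block called 439 genes, 396 higher and 43 lower. With no replicate block 451 genes were called, 405 higher and 46 lower, of which 344 and 27 were shared with the 413 and 43, and 18 genes (from 28) differed from U0126 embryos. DESeq2 called 859 genes, 661 higher (620 at least 2-fold) and 198 lower (109 at least 2-fold), and 68 differed from U0126 embryos. The cause was not tested. All 12 libraries with the replicate block gave 2035 genes, 1153 higher (856 at least 2-fold), 882 lower (129 at least 2-fold), 295 activated from near zero and 3 lower to near zero. All 12 libraries with no block gave 884 genes, 627 higher, 257 lower (79 at least 2-fold) and 186 activated. A filter of 50 scaled counts, which tests fewer genes, left 287 genes, 261 higher (all 261 at least 2-fold), 26 lower and 33 activated. A pseudocount of 8 gave 61 genes that differed from U0126 embryos.

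When replicates were left out, singly or in pairs, the total ran from 171 to 2779 genes. Higher genes ran from 157 to 1268 (157 to 761 at least 2-fold) and lower genes from 11 to 1537 (11 to 238 at least 2-fold). Activated genes ran from 0, where the filter of 3 libraries removed them all, to 234, under the looser filter and near-zero class given above. Genes lower to near zero ran from 0 to 1, and those that differed from U0126 embryos from 0 to 95. The difference in genes detected was 420 to 614 over its alternatives. With no block, 291, 301 and 247 genes were called without DMSO replicate 1, 2 and 3 at 64 cells, and 171, 174 and 517 without those at 112 cells. Of the 1454 genes whose libraries all fell without overlap, 43 were called.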
